A study of Rattus norvegicus with 6 samples.

Results

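Genes of the smooth muscle contractile apparatus were followed in rat cells of the nucleus pulposus, the soft centre of the intervertebral disc. The set is Acta2, Actg2, Tagln, Cnn1, Myl9, Tpm1, Tpm2, Lmod1, Des and Srf, taken by symbol and kept at any level, 10 of the 22601 rows in each deposited file. RNA sequencing covered 6 libraries from Sprague Dawley rats. The control group had 3 libraries and the cyclic tensile strain group had 3, the latter stretched on a Flexcell system to 18% elongation at 0.2 Hz for 24 h. The stretching protocol is entered for every sample, controls included, and only the class label sets the controls apart as unstretched. Genotype, age and harvest time are not given. Separate animals or cultures are not stated for the replicates either, and the p-values then cover only the spread among these 6 samples, which may be technical.

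Actin filaments slide past myosin to produce tension in smooth muscle and, in less ordered bundles, in stretched or wounded connective tissue cells. Genes of this apparatus are classic targets of serum response factor (SRF), which binds a short AT-rich element called the CArG box. With its MRTF partners, SRF reads the pool of free actin monomers, so that the state of the actin skeleton feeds back on the genes that build it. Acta2 encodes the smooth muscle alpha-actin that marks smooth muscle cells and myofibroblasts.

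The promoter sequences of Acta2 and Srf are shown because, of the 7 members searched, only these held an exact or once-substituted element in the window. Acta2 is a much studied target and Srf regulates its own gene. RefSeq's table for the GRCr8 rat build held an entry for 7 of the 10 genes, matched by symbol. Tagln, Myl9 and Lmod1 had none and were not searched. The 250 bases before each transcription start were searched on both strands for the CArG box, by name, and for the same element with 1 G or C in its core of 6 A or T bases. Capitals mark each match.
Srf, chr9:21923826-21924075, plus strand: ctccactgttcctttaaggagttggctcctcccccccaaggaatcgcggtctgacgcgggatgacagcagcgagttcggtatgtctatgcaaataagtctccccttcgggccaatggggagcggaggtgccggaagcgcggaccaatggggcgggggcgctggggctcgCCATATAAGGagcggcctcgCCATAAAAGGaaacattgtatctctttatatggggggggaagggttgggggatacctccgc
Acta2, chr1:241172504-241172753, minus strand: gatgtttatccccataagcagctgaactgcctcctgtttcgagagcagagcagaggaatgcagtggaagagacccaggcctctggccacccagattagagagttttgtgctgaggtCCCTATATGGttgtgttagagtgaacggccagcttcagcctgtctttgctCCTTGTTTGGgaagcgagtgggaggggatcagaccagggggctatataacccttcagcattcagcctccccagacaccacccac

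Srf held 2 exact CArG boxes, whose first bases lay 81 and 61 bases before the start. Acta2 held 2 matches with 1 substitution in the core, at 134 and 84 bases before the start. The windows of Actg2, Cnn1, Tpm1, Tpm2 and Des held neither form. Over all 33469 promoter windows of this length in the table, 1.5% held an exact box and 8.08% held an exact or once-substituted one. A match describes the letters in the window and is not a measured binding site.

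The label of the cells was compared with marker genes. Of 16 nucleus pulposus and notochord markers 11 averaged 1 FPKM or more, the minimum used for testing. FPKM are fragments scaled to transcript length and library size. The proteoglycan gene Acan lay between 24.2 and 43.3 FPKM in the 6 libraries and the matrix Gla protein gene Mgp at 4890.1 FPKM or more. The markers that averaged under 1 FPKM were Shh, T, Krt18, Krt19 and Col2a1. Shh was listed at 0 in every library and the notochordal factor T stayed at or under 0.119 FPKM. Krt18 stayed at or under 0.14 FPKM and the notochordal keratin Krt19 at or under 0.071 FPKM. The fibrillar collagen gene Col2a1 was at 0.048, 0.068 and 0.010 FPKM in controls and 0.45, 0.84 and 1.41 FPKM under strain. The tested markers differed between the groups: 8 of 11 were higher under strain, 1 lower (Cdh2) and 2 not called (Acan and Cd24), with a median log2 fold change of 0.85. Over all tested genes 16.4% were higher and 19.0% lower. Mgp rose 2.43-fold, Lgals3 3.19-fold, Pax1 2.98-fold and Krt8 1.99-fold (Krt8 was not called without control replicate 1), and Sox9, Foxf1, Car3 and Ncam1 rose too. The part of these markers in the contractile gene values was not tested. The files gave summed FPKM of 309497 to 348238 per library, and since FPKM keep no read totals, the depth is unknown.

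Of the 10 contractile genes, all of which passed the filter, 1 was called higher under strain, 0 were called lower and 9 were not called (limma, Benjamini-Hochberg adjusted p under 0.05 over 10180 genes; 5 members had an unadjusted p under 0.05). Among all tested genes 35.4% were called, 16.4% as higher and 19.0% as lower, against 10% of the contractile genes. Their median log2 fold change was 0.22, against -0.012 over all tested genes, and 8 of the 10 had a positive value. With 1 library left out that median ranged from 0.0965 (without strain replicate 3) and 0.12 (without control replicate 1) to 0.33 (without control replicate 2). Log2 fold changes are differences of log2(FPKM + 1), which understates the change of low genes. Without strain replicate 3 the count was 0, with 1 member at an unadjusted p under 0.05, and without control replicate 2 it was 3. Over all genes 3572 of 10170 were called without strain replicate 3 and 3003 of 10184 without control replicate 2.

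**Figure D1:**
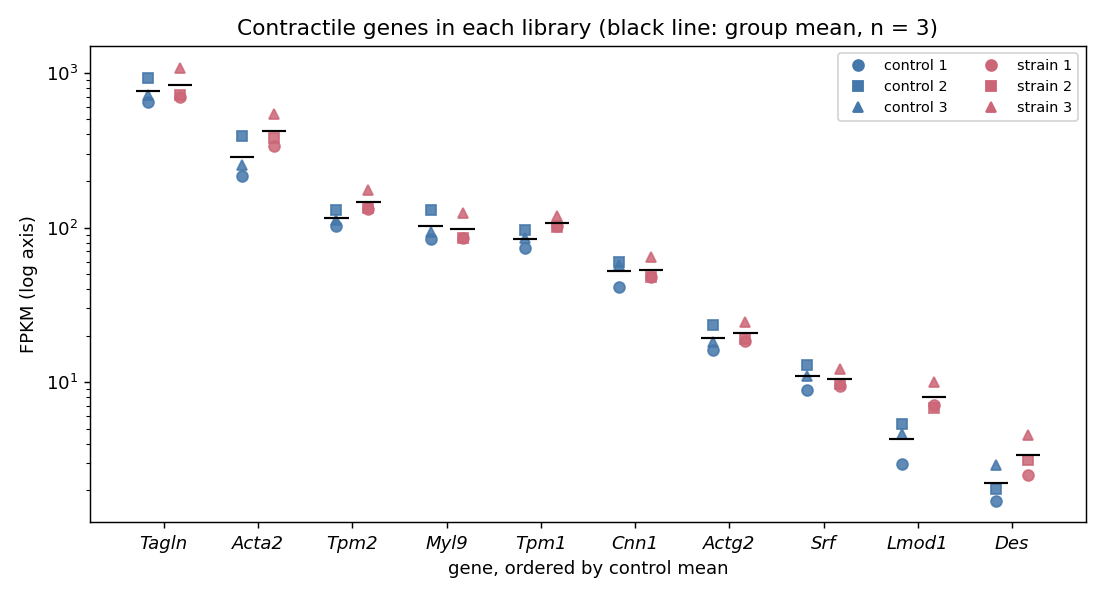
FPKM of the 10 genes on a log axis, 1 point per library (blue control, red strain, shape by replicate number) with a black line at each group mean. Levels ran from about 1.71 FPKM (Des, control 1) to 1083 FPKM (Tagln, strain 3), and the groups overlapped in all genes but Tpm1, Tpm2 and Lmod1.

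The actins come first. Acta2, smooth muscle alpha-actin, measured 214, 393 and 255 FPKM in the controls, given in the order of replicates 1, 2 and 3, and 337, 380 and 539 FPKM under strain in the same order. Control replicate 2 lay above strain replicates 1 and 2, so the groups overlapped. The means were 287 ± 93.5 and 418 ± 106 FPKM (SD, n = 3), a ratio of 1.46, with a log2 fold change of 0.56 ± 0.24 SE that was not called (limma adjusted p = 0.10). Single libraries moved it both ways: it was 0.36 without strain replicate 3 (limma adjusted p = 0.31), 0.37 without control replicate 1 (adjusted p = 0.30) and 0.81 without control replicate 2 (adjusted p = 0.021). Without control 2 and strain 3 together it was 0.61 ± 0.11 SE (limma adjusted p = 0.0078). That setting was chosen after seeing the data. It drops the highest Acta2 value of each group, which narrows the spread, so no conclusion is drawn from its p.

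Actg2 encodes the gamma-actin of visceral smooth muscle. Its level was 16.3, 23.4 and 18.2 FPKM in controls and 18.3, 19.1 and 24.5 FPKM under strain. The groups overlapped nearly whole, and the log2 fold change was 0.10 ± 0.15 SE (limma adjusted p = 0.65). The actins are near-identical proteins with similar coding sequences, and how the authors assigned fragments shared between them is not given in the sources used here, so the split between Acta2, Actg2 and the other actins is uncertain.

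Lmod1, leiomodin 1, nucleates actin filaments in smooth muscle and was the 1 gene called. It stood at 2.94, 5.37 and 4.63 FPKM in controls and 7.09, 6.80 and 10.05 FPKM under strain. All strain libraries were above all control libraries. The mean rose from 4.31 ± 1.24 to 7.98 ± 1.80 FPKM (SD, n = 3), 1.85-fold, with a log2 fold change of 0.77 ± 0.20 SE (limma adjusted p = 0.015). The call was lost without strain replicate 3 (log2 fold change 0.61, limma adjusted p = 0.051), the library with its highest level, and held in the other 15 of 16 alternatives (adjusted p from 0.0097 to 0.051 over the 16).

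Tropomyosins lie along the actin filament and gate its contact with myosin. Tpm1 was at 73.3, 95.96 and 84.9 FPKM in controls and 102.5, 100.4 and 118 FPKM under strain. Tpm2 was at 102, 131 and 112 FPKM in controls and 132.5, 134 and 175 FPKM under strain. Both were higher in every strain library than in any control, as were 24.0% of all tested genes, but for Tpm2 the nearest libraries differed by under 2 FPKM. Tpm1 had a log2 fold change of 0.34 ± 0.12 SE (limma adjusted p = 0.053) and Tpm2 of 0.35 ± 0.14 SE (limma adjusted p = 0.078). With 1 library left out, Tpm1 ranged from 0.24 without control replicate 1 (adjusted p = 0.196) to 0.43 without control replicate 2 (adjusted p = 0.032, called). Tpm2 ranged from 0.22 without strain replicate 3 (adjusted p = 0.16) to 0.45 without control replicate 2 (adjusted p = 0.055). Neither passed the threshold as deposited, and both passed after quantile normalization (0.42 and 0.43, limma adjusted p = 0.014 and 0.021) or when libraries were scaled to 1 median (adjusted p = 0.023 and 0.038). These values sum over the isoforms of each gene.

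Tagln encodes transgelin, a small actin-bundling protein that is an early marker of smooth muscle. It was the most abundant of the 10 genes, at 653, 925 and 725 FPKM in controls and 698, 724 and 1083 FPKM under strain. Control replicate 2 and strain replicate 3 stood high, and the other 4 libraries lay between 653 and 725 FPKM. The log2 fold change was 0.11 ± 0.19 SE (limma adjusted p = 0.70). Cnn1, calponin 1, a brake on actomyosin in differentiated smooth muscle, was at 41.1, 59.6 and 57.0 FPKM in controls and 48.0, 47.7 and 64.6 FPKM under strain. Its group means, 52.5 and 53.4 FPKM, differed by less than either SD (9.99 and 9.66), and the log2 fold change was 0.03 ± 0.16 SE (limma adjusted p = 0.91).

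Myl9, the regulatory light chain of smooth muscle myosin whose phosphorylation starts contraction, was at 84.7, 129.7 and 93.2 FPKM in controls and 85.5, 85.4 and 124.5 FPKM under strain. Its highest library was a control, and the log2 fold change was -0.06 ± 0.19 SE (limma adjusted p = 0.84). Des, the muscle intermediate filament desmin, was the lowest of the 10, at 1.71, 2.02 and 2.90 FPKM in controls and 2.52, 3.13 and 4.52 FPKM under strain. Its groups overlapped through control replicate 3, and the log2 fold change was 0.44 ± 0.19 SE (limma adjusted p = 0.097). It was 0.26 without strain replicate 3 (adjusted p = 0.27), and it passed without control replicate 3 (0.59, adjusted p = 0.048) or strain replicate 1 (0.59, adjusted p = 0.041).

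Srf itself was at 8.91, 12.9 and 10.98 FPKM in controls and 9.48, 9.68 and 12.1 FPKM under strain. The strain values fell inside the control range, and the log2 fold change was -0.06 ± 0.14 SE (limma adjusted p = 0.79). Levels of Srf RNA do not report the activity of the protein, which was not measured.

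**Figure D2:**
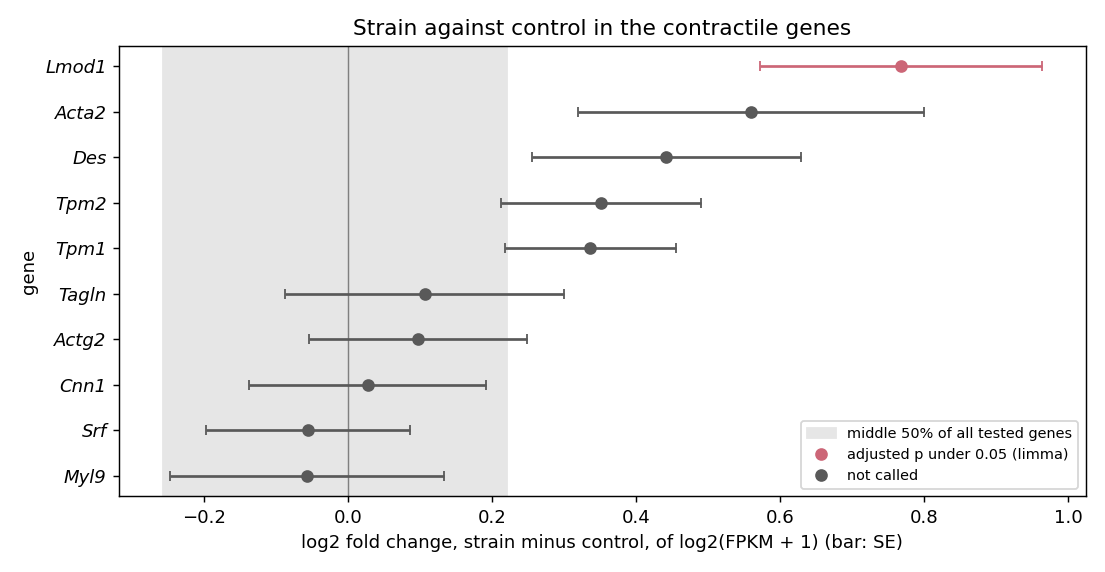
Log2 fold change of each gene (strain minus control, on log2(FPKM + 1)) with its SE; red marks adjusted p under 0.05 and the grey band holds the middle 50% of all tested genes (-0.26 to 0.22). Lmod1, Acta2, Des, Tpm2 and Tpm1 lie to the right of the band, and only Lmod1 was called.

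Since FPKM is scaled to length, levels can be ordered between genes. The order by mean over the 6 libraries was Tagln, Acta2, Tpm2, Myl9, Tpm1, Cnn1, Actg2, Srf, Lmod1 and Des. Each gene lay above the next in all 6 libraries except Myl9 and Tpm1, where Myl9 was above in 4 of 6. The ranges of Myl9 and Tpm1 overlapped in both groups, those of Tpm2 and Myl9 in controls, and those of Srf and Lmod1 under strain. Summed over the 10 genes, the level was 1198, 1777 and 1364 FPKM in controls and 1441, 1509.6 and 2155 FPKM under strain. That is 0.346%, 0.535% and 0.409% of each control library's FPKM and 0.454%, 0.489% and 0.620% of each strain library's. In bulk RNA a change in the number of contractile cells and a change in the RNA of each cell cannot be told apart.

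Much of the spread was shared by the 10 genes inside each group. In control replicate 2, 9 of 10 genes were at their highest among controls (the other, Des, was highest in control replicate 3), and in strain replicate 3 all 10 were at their highest among strain libraries. The median deviation from the group mean was 0.26 in control replicate 2 and 0.30 in strain replicate 3, on the log2(FPKM + 1) scale. In control replicate 1 all 10 genes were under the group mean (median -0.24), as they were in strain replicates 1 and 2 (medians -0.15 and -0.12). Over all tested genes the medians were 0.020 in control replicate 2 and 0.043 in strain replicate 3, where 41.6% and 50.8% of genes were at their group's highest.

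The SE of the log2 fold change was above the median of all tested genes (0.11) in all 10 members, with a range of 0.12 to 0.24. Between pairs of members, Pearson's r of log2(FPKM + 1) over the 6 libraries ran from 0.29 to 0.99 with a median of 0.78 (45 pairs). After each group's mean was taken off, it ran from 0.50 to 0.997 with a median of 0.94. These points share libraries, and 3 deviations in a group sum to 0, so the values only describe the pattern. Srf and Tpm1 had r = 0.48 over the 6 libraries and 0.99 in the deviations.

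**Figure D3:**
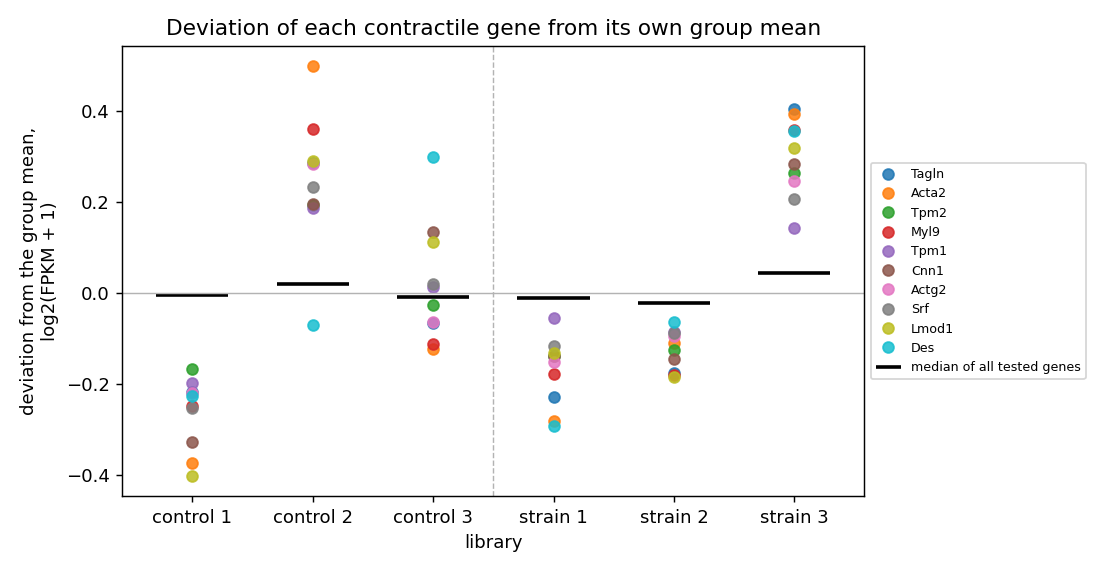
Deviation of each gene from its own group mean, log2(FPKM + 1), by library, with a black bar at the median deviation of all tested genes. The points sit above 0 in control 2 (except Des) and strain 3 and below 0 in control 1, strain 1 and strain 2, while the black bars stay between -0.022 and 0.043.

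Ratios of 2 genes within a library set aside a level shared by both. Of 10 ratios, chosen with the values known, 7 did not overlap between the groups (51.9% of single tested genes did not overlap). The ratios share genes, among them Acta2, Tagln and Lmod1, so the 7 are not separate results and compare only loosely with that share. With 3 libraries against 3 the two-sided exact permutation test cannot give less than 0.10, and each of the 7 had that p (0.14 adjusted over the 10), so none passed. Acta2 over Tagln was 0.328, 0.425 and 0.351 in controls and 0.483, 0.525 and 0.497 under strain. Acta2 over Actg2 was 13.2, 16.8 and 13.99 in controls and 18.4, 19.9 and 22.0 under strain. In both, every strain library was above every control, including control replicate 2.

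Myl9 over Acta2 went the other way, from 0.364 ± 0.032 in controls to 0.237 ± 0.015 under strain (SD, n = 3). The ratio of Lmod1 to Cnn1 was 0.0809 ± 0.0093 in controls and 0.148 ± 0.0066 under strain. Tpm2 over Tpm1 (1.36 ± 0.033 and 1.37 ± 0.10) and Cnn1 over Tagln (0.0687 ± 0.0086 and 0.0648 ± 0.0047) overlapped. The ratio of Tagln to the cytoplasmic beta-actin gene Actb was lower in every strain library, at 0.510, 0.512 and 0.465 in controls and 0.304, 0.303 and 0.369 under strain. Actb itself was called higher under strain (1.64-fold, limma adjusted p = 0.0086), while Tagln was not called (log2 fold change 0.11). The lower ratio is therefore not a fall in Tagln. Acta2 over Actb overlapped, at 0.183 ± 0.030 and 0.163 ± 0.019.

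**Figure D4:**
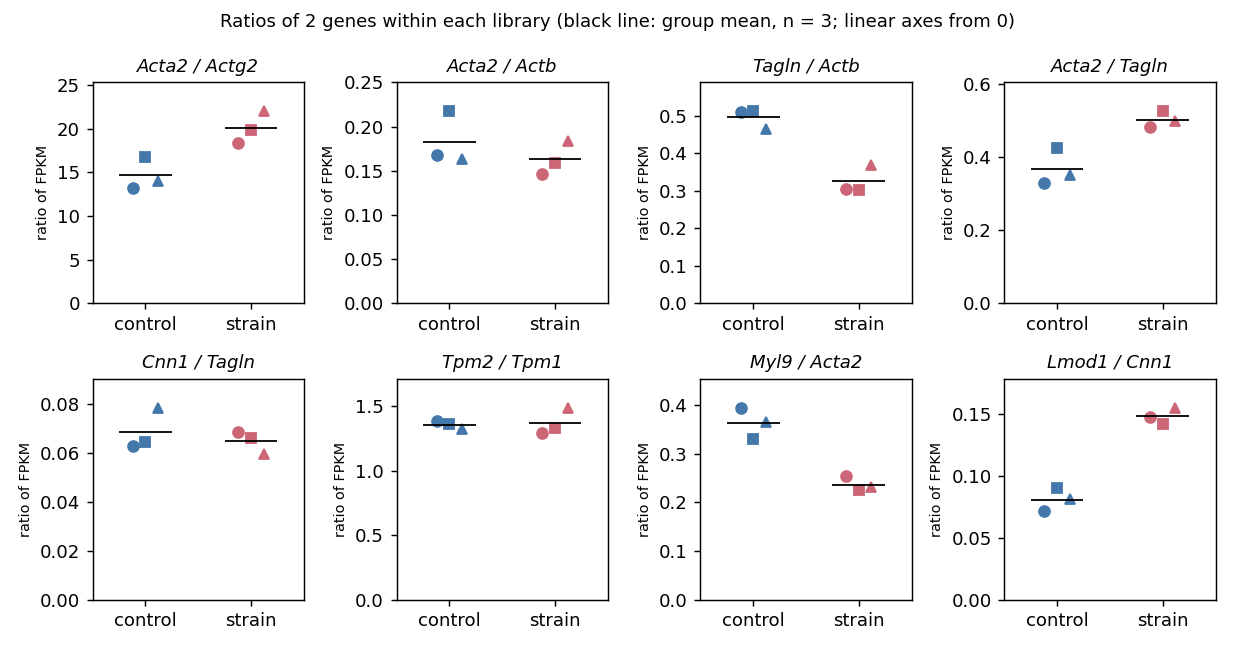
Ratios of FPKM for 8 of the 10 gene pairs in each library, with group means as black lines and linear axes that start at 0. Control and strain points are apart for Acta2/Actg2, Tagln/Actb, Acta2/Tagln, Myl9/Acta2 and Lmod1/Cnn1 and overlap for the other 3 panels.

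Other genes of the smooth muscle apparatus were read from a list of 16. Of these 12 were tested, and 6 were higher, 1 lower and 5 not called, with a median log2 fold change of 0.46, where 16.4% of all tested genes were higher and 19.0% lower. Pgm5, a phosphoglucomutase-like protein of adherens junctions, rose from 4.94 ± 1.06 to 9.43 ± 1.48 FPKM (SD, n = 3; limma adjusted p = 0.0037). Mylk, the kinase that phosphorylates myosin light chains, rose from 2.89 ± 0.93 to 6.01 ± 0.77 FPKM (limma adjusted p = 0.0049). Csrp1, an LIM-domain partner of SRF, and Smtn, smoothelin, rose 1.53-fold and 1.45-fold.

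The smooth muscle myosin heavy chain Myh11, named here after its values were seen, was at 15.3, 21.0 and 17.04 FPKM in controls and 15.3, 15.7 and 17.3 FPKM under strain. It was highest in control replicate 2 and was not called (limma adjusted p = 0.44).

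Among 21 other actins and non-muscle paralogs of the members, 15 were tested, of which 5 were higher, 1 lower and 9 not called. Over all tested genes 16.4% were higher and 19.0% lower. Vim, the mesenchymal intermediate filament vimentin, rose from 529 ± 96.02 to 1335 ± 259 FPKM (limma adjusted p = 0.00062). Tagln2, the broadly expressed paralog of Tagln, rose 1.73-fold. Myl12b, a non-muscle light chain related to Myl9, rose 1.46-fold, and the non-muscle myosin heavy chain Myh10 fell 1.38-fold. Myl12a of the same list, named after its values were seen, was at 246 ± 18.8 and 235 ± 28.2 FPKM and was not called (limma adjusted p = 0.69). The cytoplasmic actins Actb and Actg1, named after their values were seen, rose as well. Actb went from 1548 ± 264 to 2539 ± 346 FPKM (limma adjusted p = 0.0086) and Actg1 from 324 ± 43.4 to 476 ± 67.6 FPKM (limma adjusted p = 0.014, not called without control replicate 1 or 3).

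Acta1 and Actc1, the actins of skeletal and cardiac muscle, were at 1.46 to 4.23 FPKM and at or under 0.209 FPKM. Tpm3 and Tpm4, non-muscle tropomyosins, had log2 fold changes of 0.07 and 0.06 and were not called. Acta1, Actc1, Tpm3 and Tpm4 were named after their values were seen.

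Of the 9 SRF cofactors and related regulators 8 were tested, and 2 were higher, 1 lower and 5 not called. Over all tested genes the shares were 16.4% higher and 19.0% lower. Fhl1 and Fhl2, LIM-only proteins of muscle, rose with strain. Fhl1 went from 78.7 ± 21.9 to 161 ± 15.3 FPKM (limma adjusted p = 0.0020) and Fhl2 from 14.85 ± 1.32 to 18.5 ± 1.63 FPKM (limma adjusted p = 0.049). Fhl1 was called in all 16 alternatives. Fhl2 was called in 8 of 16 and lost its call without any 1 of the libraries except control replicate 2 (adjusted p up to 0.15). Elk4, an SRF partner that competes with MRTF, fell from 7.75 ± 0.35 to 5.32 ± 1.16 FPKM (limma adjusted p = 0.024), a call lost with no filter on low values and without control replicate 1 or 3 (adjusted p up to 0.078). The muscle-restricted coactivator Myocd was at 1.61 ± 0.29 and 1.27 ± 0.22 FPKM, and Mkl1, which encodes MRTF-A, at 4.83 ± 0.33 and 4.43 ± 0.30 FPKM, and neither was called. Elk1, Elk3 and Scai were not called either, and Mkl2 was under the filter.

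Further genes known to answer MRTF and SRF numbered 12, all tested, with 2 higher, 1 lower and 9 not called (median log2 fold change 0.18). Over all tested genes 16.4% were higher and 19.0% lower. Ankrd1, a stretch-responsive nuclear protein, rose from 1.17 ± 0.83 to 3.65 ± 1.45 FPKM, and vinculin (Vcl), which ties actin to adhesions, rose 1.34-fold. Zyxin (Zyx), which reinforces strained actin fibres, fell 1.59-fold, from 151 ± 7.64 to 94.9 ± 13.98 FPKM (limma adjusted p = 0.0026). Control replicate 2 weighed on this list: without it 6 were higher and 1 lower, beside 1457 higher and 1546 lower of all 10184 genes tested in that setting. Without control replicate 1, control replicate 3 or strain replicate 3 no gene of it was called higher, and Vcl was not called without strain replicate 1 or 2 either.

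Candidates were genes that averaged 8 FPKM or more, without provisional symbols (those that start with LOC, RGD, AABR or MGC). Among them the genes most like Acta2 and Tagln in pattern were taken by Pearson's r of log2(FPKM + 1) over the 6 libraries. For Acta2 they were Tgfb1i1 (r = 0.996), Agpat1 (0.985), Tgfb3 (0.983), Eri3 (0.982) and Sord (0.978). Tgfb1i1, which encodes the focal adhesion protein Hic-5, is also in the list of MRTF and SRF responders. For Tagln they were Cnpy3 (0.990), Bcar1 (0.986), Golga2 (0.982), Tuba1b (0.972) and the member Actg2 (0.971). Of the candidate genes 2.72% had r above 0.9 with Acta2 and 1.05% with Tagln. The points share 6 libraries in 2 groups, and the values are a description.

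Markers of other cells that carry contractile genes were read beside these results. Of 9 pericyte markers 6 were tested and 5 rose: Cspg4, Ndufa4l2, Abcc9, Pdgfrb and Kcnj8. Over all tested genes 16.4% were higher. Mcam was not called, nor was Kcnj8 without control replicate 1. The summed level of the list was 94.8 to 111 FPKM in controls and 191 to 254 FPKM under strain, with most of the sum from Pdgfrb, Mcam and Ndufa4l2. The defining marker Rgs5 was at 0 in 5 libraries, Higd1b was listed at 0 in all, and Notch3 did not exceed 0.23 FPKM.

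Fibroblast activation markers, all 11 tested, had 7 higher (Postn, Cdh11, Col1a1, Col3a1, Fn1, Lrrc15 and Cthrc1), 1 lower (Thy1) and 3 not called (Fap, Pdgfra and S100a4). Over all tested genes 16.4% were higher and 19.0% lower. The calls of Postn and Lrrc15 were lost without control replicate 1 or 3 or strain replicate 1 or 2, and that of Lrrc15 also without control replicate 2. Their summed level was 5674 to 6742 FPKM in controls and 11348 to 12633 FPKM under strain. The part of either list in the contractile gene values was not tested.

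Skeletal muscle markers summed to 2.66 to 3.71 FPKM in controls and 1.66 to 1.85 FPKM under strain, with 1 of 18 tested (Mybpc1, lower), 6 listed at 0 in all libraries and Myod1 at 0 in 5. Cardiac markers (7) summed to at most 0.737 FPKM and endothelial markers (11) to at most 2.09 FPKM, and none of either passed the filter. Of 10 leukocyte markers 4 were tested, with Lyz2 higher, Cd68 and Adgre1 lower and Cd14 not called (17.6 to 24.1 FPKM in sum for controls, 20.05 to 23.4 FPKM under strain). The pan-leukocyte gene Ptprc stayed at or under 0.049 FPKM. Of 7 neural and Schwann markers 2 were tested, S100b and Tubb3, and both rose (30.4 to 32.6 and 38.3 to 48.2 FPKM in sum). Of all tested genes 16.4% were higher and 19.0% lower. Without control replicate 1 neither S100b nor Tubb3 was called (limma, 0 of 2). In that setting 3 leukocyte genes were tested and 0 were called lower. Adgre1 lost its call there, while Cd68 fell under the filter and was not tested. Cd68 kept its call in all 14 alternatives that tested it. The call of Adgre1 was also lost with no filter and without control replicate 3 or any 1 strain library (adjusted p up to 0.095).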

How the data were processed

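The authors deposited 1 value per gene symbol and library, taken as FPKM from the values and from Cufflinks and Cuffdiff 2.2.1 in the submitters' processing notes. The authors also used cutadapt 1.9.3 and HISAT2 2.0.4, per the submitters' processing notes, which name hg19 as the only build, although the symbols are rat ones. The steps' order, annotation and library scaling are not given in the sources used here. Rows whose symbol had become a date (27) and 1 row with a missing value were left out. Genes averaging 1 FPKM or more across the 6 libraries (10180) were fitted as log2(FPKM + 1) with limma 3.58.1 in R 4.3.3 (trend and robust moderation), strain against control, two-sided, with Benjamini-Hochberg adjustment over all of them and a threshold of 0.05. Ratios of group means are given where both are at least 1 FPKM. Between any 2 libraries 0% of the values from 1 FPKM up were identical. The members, lists, ratios and tests were chosen with earlier results of these data known. Genes named by rule are the members and up to 4 called genes with the smallest p of each muscle, actin or SRF list. The tested SRF cofactors, the tested markers of other cells and the 5 genes most like Acta2 and Tagln were also named by rule. Other genes were named after their values were seen. Among them are Myh11, Actb, Actg1, Acta1, Actc1, Tpm3, Tpm4, Myl12a, Mkl2 and the markers under the filter. A gene and a list that the rule takes are not reported here. Alternatives changed the pseudocount (0.1, 0.5, 5), the filter (none, 5 FPKM), the scaling, limma's moderation, the replicate block and the libraries. Promoters came from RefSeq's GRCr8 table and were matched by symbol, with no coordinates taken from the files.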

Additional observations from a re-analysis of the deposited data

How the results depend on the processing

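Over 159 refits of single contractile genes, 132 kept direction and side of the threshold, 12 gained a call, 1 lost it and 14 changed sign, all 14 among genes not called. The count of contractile genes called (1) was 3 after quantile normalization and 3 with median scaling (Tpm1 and Tpm2 added), 2 with the replicate block (Des added), and 4 without control 2 and strain 3 together (Acta2, Tpm1 and Tpm2 added), a setting chosen after seeing the data. With each library left out in turn it ranged from 0 to 3, the count over all genes from 2363 (without control replicate 1, against 3608) to 3572, and that of the other lists from 33 (without control replicate 1, against 51) to 54. Log2 fold changes turned sign to 0.023 for Myl9 and 0.011 for Srf after quantile normalization and to -0.016 for Cnn1 without control 2 and strain 3 together. With 1 library left out they ranged from -0.026 to 0.24 for Actg2, -0.095 to 0.25 for Tagln, -0.14 to 0.13 for Cnn1, -0.24 to 0.12 for Myl9 and -0.18 to 0.061 for Srf. The cause of these changes was not tested. Over all genes, quantile normalization gave 2138 higher and 1711 lower and median scaling 2041 and 1657, against 1672 and 1936 as deposited. Whether same-numbered control and strain libraries were paired is not stated. Their deviations had correlations of 0.033, 0.108 and -0.116, and those of unlike-numbered libraries ran from -0.21 to 0.12. With 3 deviations in a group that sum to 0, these values cannot decide it. The block gave 3116 calls over all genes, and the fit without control 2 and strain 3 together gave 3591 of 10165. Des has no value with the filter at 5 FPKM. The depth is unknown, so counting error could not be set beside the spread.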
